A study of Mus musculus with 40 samples.

Results

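The RNA-sequencing table of primary tumors from the 4T1- and 66cl4-based intraductal models was examined for 10 genes of the major histocompatibility complex (MHC) class I antigen presentation pathway, namely H2-K1, H2-D1, B2m, Tap1, Tap2, Tapbp, Psmb8, Psmb9, Psmb10 and Nlrc5. These genes were chosen by symbol, and all 10 are among the 14318 genes that the table lists. The tumors had been grown from luciferase-expressing 4T1 or 66cl4 mammary tumor cells, 2 lines that stem from mammary tumor tissue of BALB/c origin, after intraductal inoculation of lactating female wild-type BALB/c mice, and were collected at 5 w p.i. In each model, mice were left untreated or received i.p. anti-PD-1 (200 µg of clone RMP1-14, an antibody that blocks the inhibitory PD-1 receptor of T cells), i.p. chitin (1 mg of small particles of the polymer that chitinase-like proteins bind) or both, abbreviated chitin+anti-PD-1. These are doses per injection. Per the paper, chitin was given every few days and anti-PD-1 weekly until 5 w p.i., starting once the tumors were invasive. Every group held 5 tumors except untreated 4T1 with 4 (tumors 1, 2, 4 and 5), giving 19 tumors of the 4T1-based and 20 of the 66cl4-based model. Per the paper's methods, the cells were inoculated into a pair of mammary glands, so that a mouse could carry a tumor on each side. The labels do not say which tumors came from separate mice. Each model rests on a single cell line, so that a difference between the models is a difference between tumors of 2 lines.

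MHC class I molecules display peptides from inside the cell to CD8+ T cells. Proteins are cut by the proteasome, whose 3 constitutive catalytic subunits (encoded by Psmb6, Psmb7 and Psmb5) are exchanged in the immunoproteasome for the inducible subunits encoded by Psmb9, Psmb10 and Psmb8. The peptides are pumped into the endoplasmic reticulum by the Tap1-Tap2 transporter and are loaded with the help of tapasin (Tapbp) onto heavy chains such as those encoded by H2-K1 and H2-D1, which need beta-2 microglobulin (B2m) to reach the cell surface. Nlrc5 is a transcriptional co-activator of these genes and is itself induced by interferon-gamma, as is Irf1, another transcription factor of the pathway. Nearly all nucleated cells, tumor cells and leukocytes alike, use this machinery. In RNA from whole tumors, fewer cells of a type and less RNA per cell cannot be told apart.

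The promoter sequences of the heavy chains and B2m are shown because Nlrc5, 1 of the genes measured, acts through a composite promoter element of class I genes that holds an X2 box (a site for CREB/ATF factors) and a Y box (an inverted CCAAT box, bound by NF-Y). RefSeq promoter windows of the GRCm38.p6 assembly, from 250 bases before to 50 bases after the transcription start, were found for 8 of the 10 genes. They were not found for Tap2 and Nlrc5. In the sequences of H2-K1 (chr17:34000298-34000597, minus strand), H2-D1 (chr17:35262844-35263143, plus strand) and B2m (chr2:122147437-122147736, plus strand), printed 5′ to 3′ along the gene, capitals mark TGACG and ATTGG where the second starts 25 bases after the first, and in B2m also a match to the core of an interferon-stimulated response element.
H2-K1: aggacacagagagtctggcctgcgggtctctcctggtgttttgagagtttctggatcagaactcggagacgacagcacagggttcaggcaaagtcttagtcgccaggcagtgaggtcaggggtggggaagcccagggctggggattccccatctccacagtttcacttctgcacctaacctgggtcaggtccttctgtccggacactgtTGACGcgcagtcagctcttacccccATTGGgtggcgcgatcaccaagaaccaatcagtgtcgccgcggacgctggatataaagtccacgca
H2-D1: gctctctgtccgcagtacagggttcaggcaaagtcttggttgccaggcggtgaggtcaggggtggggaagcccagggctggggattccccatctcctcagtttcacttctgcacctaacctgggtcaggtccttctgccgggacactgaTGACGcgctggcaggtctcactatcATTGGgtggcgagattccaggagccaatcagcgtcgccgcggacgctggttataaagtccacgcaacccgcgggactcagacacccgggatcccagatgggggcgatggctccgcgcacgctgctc
B2m: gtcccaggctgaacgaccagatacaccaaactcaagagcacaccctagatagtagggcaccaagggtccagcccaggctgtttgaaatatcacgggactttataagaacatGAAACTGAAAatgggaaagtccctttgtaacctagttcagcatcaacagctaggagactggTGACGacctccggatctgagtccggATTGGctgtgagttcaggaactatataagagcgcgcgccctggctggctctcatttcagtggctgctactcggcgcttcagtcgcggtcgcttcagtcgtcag

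The TGACG and ATTGG motifs started at positions -41 and -16 from the start site in H2-K1, -101 and -76 in H2-D1, and -78 and -53 in B2m, so that the spacing was 25 bases in all 3 windows. For H2-K1, positions count from the start site of this RefSeq promoter entry, which lies inside the annotated extent of the gene, reaching to 34000619. The same arrangement, on either strand, was present in 31 of 32851 promoter windows (0.0944%), belonging to 27 of 27025 genes. One of the others was H2-M3, a further class I heavy chain gene. This pair was searched after the sequences had been seen. Of the 5 single motifs searched on both strands of the 8 windows, the interferon-stimulated response element core (a pair of GAAA blocks with 2 bases of any kind between them) matched 1 member, B2m, at position -139 (3.44% of all promoter windows), the interferon-gamma activated site core TTCNNNGAA matched 1 member, Psmb8, at position -97 (8.3%), and the kappa B motif GGGANTTCC matched 0 members (1.68%). TGACG alone was found in 5 of the 8 windows (20.8%) and CCAAT alone, which includes its inverted form ATTGG and so overlaps the pair, in 6 (37.4%). These counts include both Tap1 and Psmb9, whose matches are the same letters in the stretch their windows share. A match describes letters only and was not tested as a binding site. An absent match concerns the exact pattern only, and a promoter without one may hold such a site in another spelling. Both H2-K1 and H2-D1, for example, hold ggggattcccc, which resembles the kappa B pattern without matching it. Both also hold agtttcacttct, which on the opposite strand resembles the interferon-stimulated response element core without matching it.

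By the RefSeq annotation of GRCm38.p6 (mm10), 7 of the 10 genes lie on chromosome 17, where the MHC is found. Tap1, Psmb8, Psmb9 and Tap2 lie side by side, from the end of Psmb9 at 34182030 to the end of Tap2 at 34216321. Tap1 (plus strand, from 34187556) and Psmb9 (minus strand, from 34187330) are read in opposite directions from starts 226 bases apart, and their promoter windows share 275 bases. B2m is on chromosome 2, and Psmb10 and Nlrc5 are on chromosome 8.

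Values are given as deposited, on the log2-like scale of the variance stabilizing transformation (VST), on which a difference of 1 approaches a doubling for well-expressed genes, or as normalized counts, meaning reads divided by a size factor per tumor, both recovered by inverting the transformation. The tumors held 5105898 to 14800352 reads in listed genes. In 66cl4 tumors, Nlrc5 had the fewest reads of the 10 genes, with 41 to 331 per tumor, whereas H2-D1 had 8386 to 25951 per 4T1 tumor. This ranking did not hold in every 4T1 tumor, since Psmb9 was below Nlrc5 in an untreated tumor. No member was at 0 in any tumor. BALB/c mice carry another MHC haplotype than the mouse strain of the reference genome, so that the levels of H2-K1 and H2-D1, whose sequences vary between haplotypes, are less certain than those of the other members. In the reference transcripts, 6.94% of the 50-base windows of H2-K1 occur in H2-D1 and 5.31% of those of H2-D1 in H2-K1, against 0% of 150-base windows.

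All 10 genes were higher in 4T1 than in 66cl4 tumors. Without treatment, mean normalized counts were 14.8-fold higher for Nlrc5, 8.71-fold for Tap1, 6.79-fold for Psmb8, 6.62-fold for Psmb9 and 5.08-fold for H2-K1, and between 2.20-fold (Tapbp) and 3.59-fold (H2-D1) for the other 5. All 10 passed an adjusted p of 0.05 in limma, with the Benjamini-Hochberg adjustment over all 14318 genes. This holds against a background in which 55.8% of all genes passed in either direction and 28.7% were higher in 4T1. The median of the 10 differences in VST value was 1.95, compared to 0.016 over all genes. In every member, each of the 19 4T1 tumors, treated or not, lay above each of the 20 66cl4 tumors. In the untreated tumors alone, an easier separation, all 10 members and 22.3% of all genes had all 4T1 tumors above all 66cl4 tumors. The share of all genes separated over treated and untreated tumors together is not given here.

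**Figure D1:**
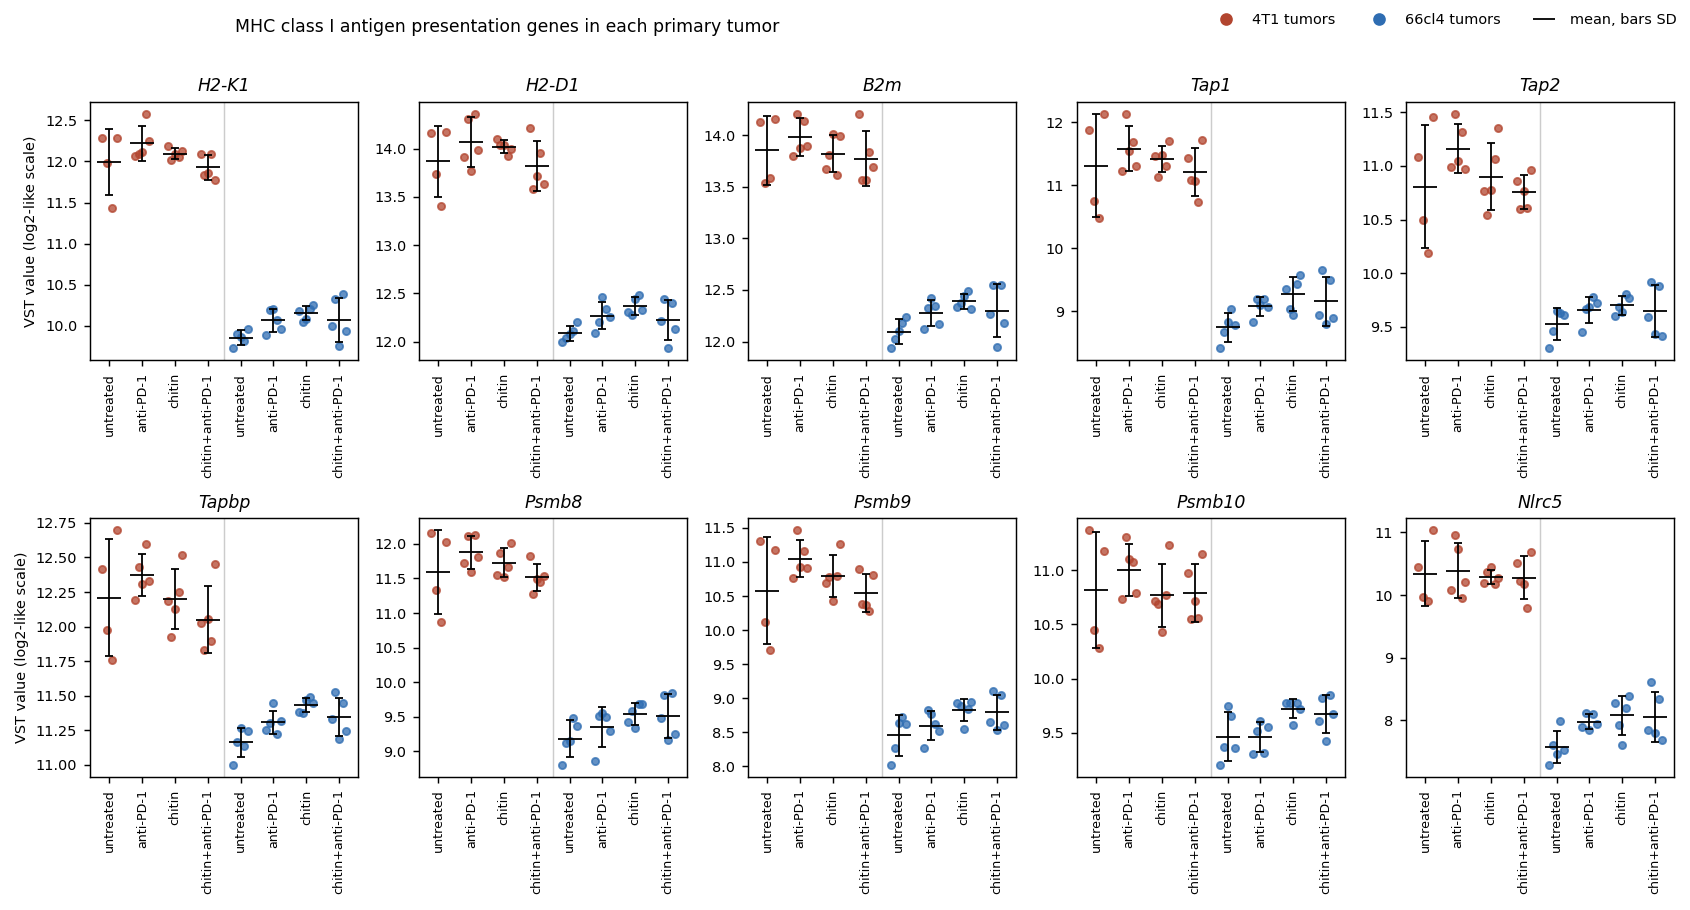
VST values (vertical axes, log2-like scale, a separate range per panel) of the 10 genes in each primary tumor, by treatment group (horizontal axes), with 4T1 tumors in red and 66cl4 tumors in blue; each point is a tumor, the bar the group mean and the whiskers the SD. In all 10 panels the 4T1 tumors lie above the 66cl4 tumors, and the untreated 4T1 group has a wide spread, for Tap1 from 10.48 to 12.12.

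Among the genes of the surface complex, H2-K1 had VST values of 12.28, 11.98, 11.44 and 12.28 in the 4 untreated 4T1 tumors and of 9.73, 9.90, 9.86, 9.82 and 9.97 in the 5 untreated 66cl4 tumors. Its lowest 4T1 tumor was thus well above its highest 66cl4 tumor. The difference was 2.14 (SE 0.13, limma adjusted p = 7.72e-16). H2-D1, the other classical heavy chain, differed by 1.78 (SE 0.14). B2m, the partner of both, had normalized counts of 17755.69, 11782.13, 12142.0 and 18164.68 in untreated 4T1 and of 3780.87, 4026.86, 4267.09, 4522.14 and 4695.43 in untreated 66cl4 tumors. The lower 4T1 tumors, 2 and 4, still exceeded the highest 66cl4 tumor. On the VST scale, B2m differed by 1.76 (SE 0.14), with a 95% confidence interval of 1.48 to 2.04. Per kilobase of exon, B2m was the most abundant member in both models, at 17397 ± 4035 normalized counts (SD, n = 4) in untreated 4T1 and 4952 ± 428 (SD, n = 5) in untreated 66cl4 tumors, followed by H2-D1 at 7214 ± 1766 and 2011 ± 115. H2-K1 came next in 4T1, at 2454 ± 632 per kilobase, whereas in 66cl4 Tapbp, at 748 ± 57.1, was above H2-K1, at 483 ± 34.6.

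Of the genes for peptide transport and loading, Tap1 showed the largest difference. Its normalized counts were 3638.86, 1587.11, 1301.64 and 4328.86 in untreated 4T1 tumors and 221.52, 285.42, 335.0, 399.28 and 316.32 in untreated 66cl4 tumors. Tumors 1 and 5 of the 4T1 group were therefore more than double tumors 2 and 4, and the 66cl4 tumors were lower than all of these. The difference in VST value was 2.56 (SE 0.24, limma adjusted p = 6.3e-11). Tap2, the other subunit of the transporter, differed by 1.28 (SE 0.17), and the interval of its difference, 0.94 to 1.62, did not meet that of Tap1, 2.07 to 3.05. Tapbp, the loading factor tapasin, had the smallest difference of the 10 genes, 1.05 (SE 0.13). Per kilobase, Tap1 exceeded Tap2 in untreated 4T1 tumors, at 919 ± 507 against 514 ± 215 normalized counts, and was below it in untreated 66cl4 tumors, at 105 ± 22.1 against 179 ± 21.1; in 4T1 the SDs of both overlapped.

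The 3 inducible proteasome subunits differed by 2.41 (Psmb8, SE 0.19), 2.12 (Psmb9, SE 0.22) and 1.35 (Psmb10, SE 0.17). Psmb8 had VST values of 12.15, 11.34, 10.86 and 12.02 in untreated 4T1 and of 8.80, 9.12, 9.15, 9.49 and 9.37 in untreated 66cl4 tumors, again without overlap. Their constitutive counterparts differed less. Psmb5 was 0.36 (SE 0.091, limma adjusted p = 0.00104) and Psmb7 0.46 (SE 0.10, limma adjusted p = 0.000354) higher in 4T1, while Psmb6, at 0.21 (SE 0.094, limma adjusted p = 0.0513), did not pass. The ratio of normalized counts per kilobase between each inducible subunit and its counterpart was accordingly higher in 4T1. Psmb8 over Psmb5 was 3.51 ± 0.715 (SD, n = 19) in 4T1 and 0.81 ± 0.219 (SD, n = 20) in 66cl4 tumors. Psmb9 over Psmb6 was 0.97 ± 0.271 and 0.20 ± 0.0562, and Psmb10 over Psmb7 was 1.08 ± 0.254 and 0.52 ± 0.0740. In none of these ratios did a 4T1 tumor overlap with a 66cl4 tumor.

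**Figure D2:**
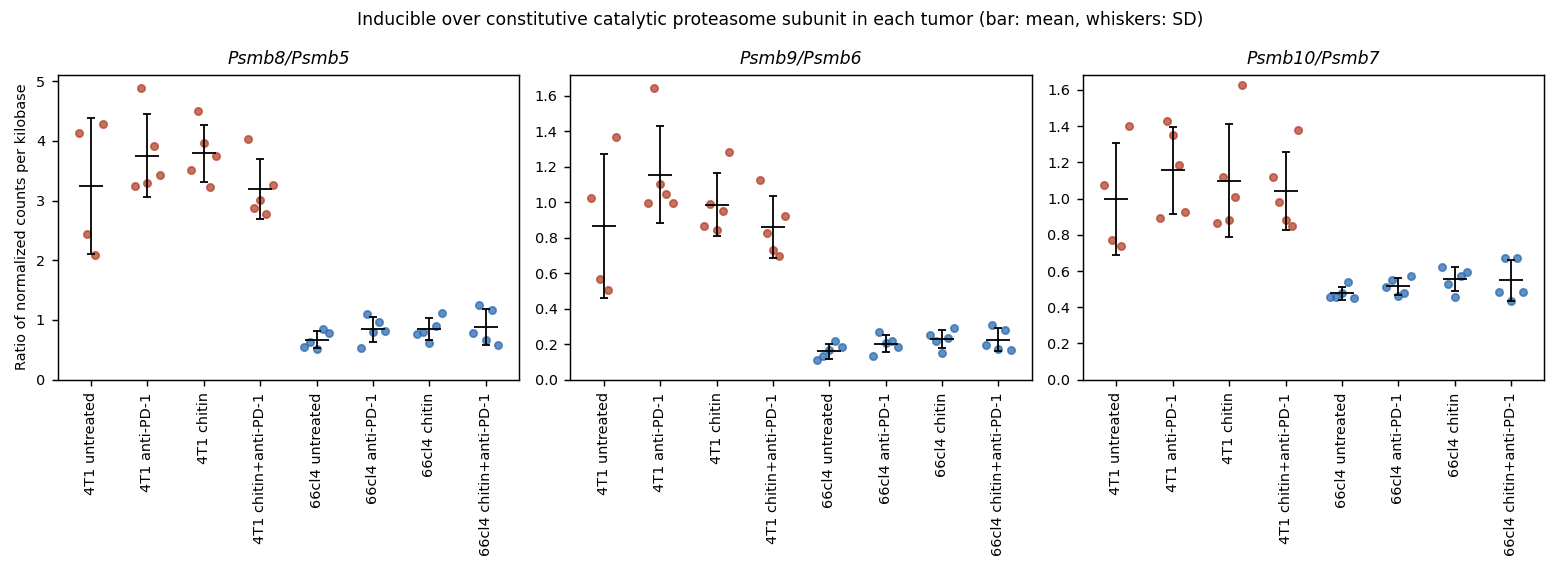
Ratio of normalized counts per kilobase of each inducible catalytic proteasome subunit over the constitutive subunit it replaces (vertical axes, from 0), in each tumor of the 8 groups (horizontal axes), with the mean as a bar and the SD as whiskers; 4T1 tumors are red and 66cl4 tumors blue. The lowest 4T1 value of Psmb8/Psmb5, 2.09, lies above the highest 66cl4 value, 1.25.

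Nlrc5, the co-activator, had the largest difference of the 10 genes and the lowest mean counts among them. Its normalized counts were 1267.33, 875.65, 835.28 and 1969.81 in untreated 4T1 tumors and 51.31, 84.82, 68.58, 139.1 and 74.74 in untreated 66cl4 tumors. The lowest 4T1 tumor was thus far above the highest 66cl4 tumor. The difference in VST value was 2.77 (SE 0.22, limma adjusted p = 4.62e-13). Per kilobase, Nlrc5 was at 152 ± 64.8 (SD, n = 4) and 10.3 ± 4.10 (SD, n = 5) normalized counts.

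**Figure D3:**
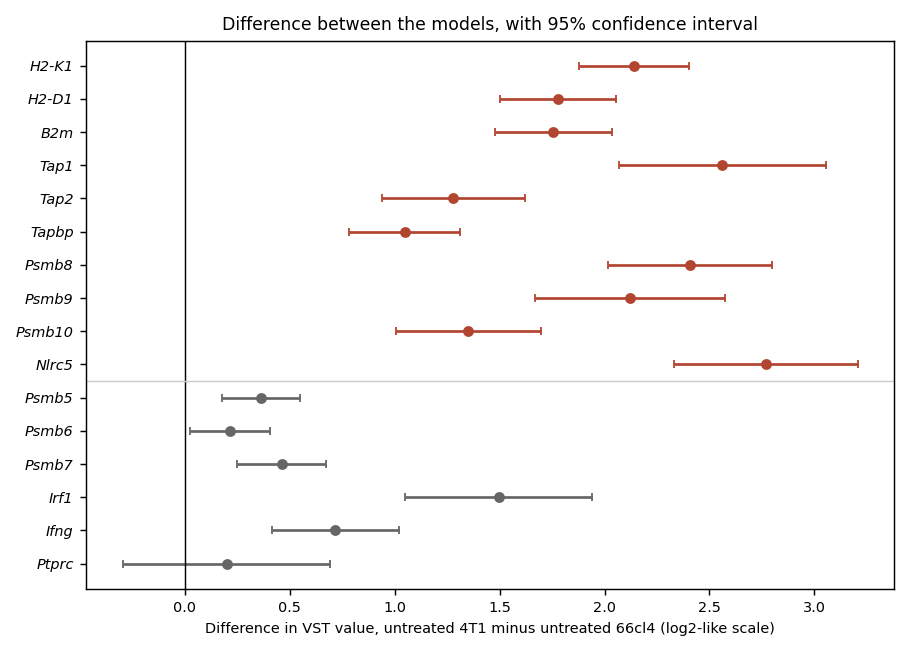
Difference in VST value (horizontal axis, log2-like scale) between untreated 4T1 and untreated 66cl4 tumors for the 10 genes (red) and for 6 related genes (grey), with 95% confidence intervals from limma. The differences of the 10 genes range from 1.05 for Tapbp to 2.77 for Nlrc5, and the interval of Ptprc alone crosses 0.

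Of 15 other class I heavy chain genes in the table, 14 were higher and 1 lower in untreated 4T1 tumors, with a median difference of 0.88. The largest differences were those of the nonclassical heavy chains H2-T23 (3.05, SE 0.27), H2-Q6 (2.67, SE 0.16) and H2-Q4 (2.45, SE 0.15). These genes are close relatives, and reads may be split between them. Among 8 further genes of peptide loading and trimming, 3 were higher and 0 lower, led by the tapasin-related Tapbpl (1.30, SE 0.19), the chaperone gene Hspa5 (0.59, SE 0.13) and Pdia3 (0.22, SE 0.077), which encodes a loading-complex partner of tapasin. The 14 proteasome counterparts and activators included 10 that were higher and 0 that were lower, with the activator subunits Psme1 (0.98, SE 0.15) and Psme2 (0.89, SE 0.15) and the assembly factor Pomp (0.60, SE 0.10) in front. Of 23 genes for regulators of class I genes, 10 were higher and 4 lower. Among those with large differences were the interferon signaling kinase gene Jak2, at 2.36 (SE 0.17), and Irf1, at 1.5 (SE 0.22). Ifng, the gene of interferon-gamma itself, was 0.72 higher in 4T1 (SE 0.15, limma adjusted p = 0.000125). All 7 MHC class II genes were higher too, with a median difference of 2.47, including H2-Eb1 (2.87, SE 0.50), H2-Ab1 (2.83, SE 0.46) and Cd74 (2.74, SE 0.48).

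Markers of the cell types a tumor can hold also differed between the models. Of 4 pan-leukocyte markers, 0 were higher and 1, Cd53, was lower in untreated 4T1 tumors; Ptprc, which encodes CD45, differed by 0.20 (SE 0.24, limma adjusted p = 0.502), with a confidence interval that includes both directions. Of 6 T-cell markers 5 were higher, with a summed level of 270.5 to 1050 normalized counts in untreated 4T1 and 38.7 to 119 in untreated 66cl4 tumors. All 5 macrophage markers had lower values and 4 passed, with sums of 9187 to 15805 against 19023 to 26157. All 5 epithelial markers were higher, Epcam by 5.42 (SE 0.38), Krt18 by 4.37 (SE 0.28) and Cdh1 by 4.12 (SE 0.30), with sums of 16005 to 26495 against 3380 to 5178. No marker of these 4 lists that is in the table was at 0 in all tumors of a model. The neutrophil markers S100a9 (1.45, SE 0.39), S100a8 (1.25, SE 0.34) and Cxcr2 (0.78, SE 0.16) were higher in untreated 4T1 tumors as well. Csf3r, at 0.39 (SE 0.19, limma adjusted p = 0.0854), did not pass. The part of these cell types in the difference between the models was not tested.

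Treatment changed none of the 10 genes past the threshold in either model. In 66cl4 tumors, the mean values of nearly all of them were nevertheless above those of untreated tumors. With chitin, all 10 genes had higher mean values than in untreated tumors, and 9 of 10, all except Tap2, were below an unadjusted p of 0.05, which was reached by 11.4% of all genes; 0 members, and 0% of all genes, passed an adjusted p of 0.05. The median difference of the 10 genes was 0.30, against a median of about 0 over all genes. With anti-PD-1, 5 members were below an unadjusted p of 0.05 (H2-K1, H2-D1, Tap1, Tapbp and Nlrc5), where the background was 5.36%, and with chitin+anti-PD-1 7 were (all but H2-D1, B2m and Tap2), where it was 10.6%; the median differences were 0.17 and 0.22, and again 0 members and 0% of all genes passed the adjusted threshold. These 3 comparisons share the 5 untreated tumors. limma-voom on recovered reads likewise called 0 members.

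Tapbp had the smallest unadjusted p with chitin. Its normalized counts were 1916.09, 2165.31, 2335.34, 2122.61 and 2294.33 in untreated and 2542.83, 2525.2, 2697.81, 2748.08 and 2668.43 in chitin-treated 66cl4 tumors, so that every chitin-treated tumor was above every untreated tumor. The difference in VST value was 0.27 (SE 0.065, limma adjusted p = 0.208). The same separation was seen for H2-K1, which ranged from 932.75 to 1095.54 normalized counts with chitin and from 719.63 to 872.89 without treatment, for H2-D1 (4824.87 to 5586.59 against 3958.59 to 4596.67) and for B2m (4961.96 to 5603.62 against 3780.87 to 4695.43). Only 0.978% of all genes had all chitin-treated above all untreated 66cl4 tumors. After chitin+anti-PD-1, 0 members were separated in this way (1.1% of all genes), and tumor 3 of that group lay within or below the untreated range for all 3 genes of the surface complex, for example with 735.1 normalized counts of H2-K1. The largest differences with chitin were those of Tap1, 0.52 (SE 0.16, limma adjusted p = 0.229), and Nlrc5, 0.50 (SE 0.17, limma adjusted p = 0.26). Normalized counts of Tap1 were 531.73, 401.94, 369.56, 562.2 and 638.83 with chitin, and its untreated tumor 4, with 399.28, lay above the lowest of these. Nlrc5 counts were 192.6, 128.07, 83.58, 174.29 and 215.55 with chitin, overlapping with the untreated range of 51.31 to 139.1.

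In the untreated 66cl4 group, tumor 1 had the lowest value for all 10 genes. In the chitin+anti-PD-1 group, tumor 2 was highest for 6 and tumor 4 for the other 4, while tumor 3 was lowest for 8. The chitin-containing groups together, against untreated and anti-PD-1 tumors together, showed 8 of the 10 genes below an unadjusted p of 0.05 (15.6% of all genes), with the smallest for Psmb10 (0.24, SE 0.069, limma adjusted p = 0.138) and Tapbp (0.16, SE 0.046, limma adjusted p = 0.14), and again 0 members, with 0% of all genes, passed the adjusted threshold. This count rested on 1 tumor: without untreated tumor 3, Psmb10 differed by 0.27 with a limma adjusted p of 0.0397 and was the 1 member to pass, with 269 genes passing in all.

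Values of several other genes moved along with those of the 10 members in chitin-treated 66cl4 tumors, and none of them passed the adjusted threshold either. Irf1 differed by 0.33 (SE 0.11, limma adjusted p = 0.247), Ifng by 0.24 (SE 0.075, limma adjusted p = 0.232) and Ptprc by 0.39 (SE 0.13, limma adjusted p = 0.238). The constitutive subunits differed by 0.081 (Psmb5, SE 0.083), 0.016 (Psmb6, SE 0.071) and 0.083 (Psmb7, SE 0.090). Of 15 other class I heavy chains, 5 were below an unadjusted p of 0.05 and higher, and of the 7 MHC class II genes all 7 were, with a median difference of 1.29. Genes for peptide loading and trimming went both ways at this p. Tapbpl (0.30, SE 0.084) and Erap1 (0.14, SE 0.067) were higher, whereas Hspa5 (-0.33, SE 0.11) and Calr (-0.19, SE 0.089) were lower. Leukocyte markers had 3 of 4 below this p, with sums of 7442 to 8546 normalized counts in chitin-treated and 5084 to 7444 in untreated tumors, and macrophage markers 3 of 5, with 27113 to 30389 against 19023 to 26157. T-cell markers summed to 123 to 199 against 38.7 to 119. Of them, Cd3e, Cd3g and Cd8a were below this p, while Cd3d, Cd8b1 and Cd4 were not. Neutrophil markers went both ways. Csf3r (0.38) and Cxcr2 (0.24) were higher and below this p, whereas S100a8 (-0.23) and S100a9 (-0.26) were lower and not below it. Sequencing depth differed too, with a median of 10250227 reads in chitin-treated and 6064018 in untreated 66cl4 tumors; when all tumors were thinned to the same depth, 0 members passed and their median difference kept its direction. The part of leukocytes in the values of the 10 genes was not tested.

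**Figure D4:**
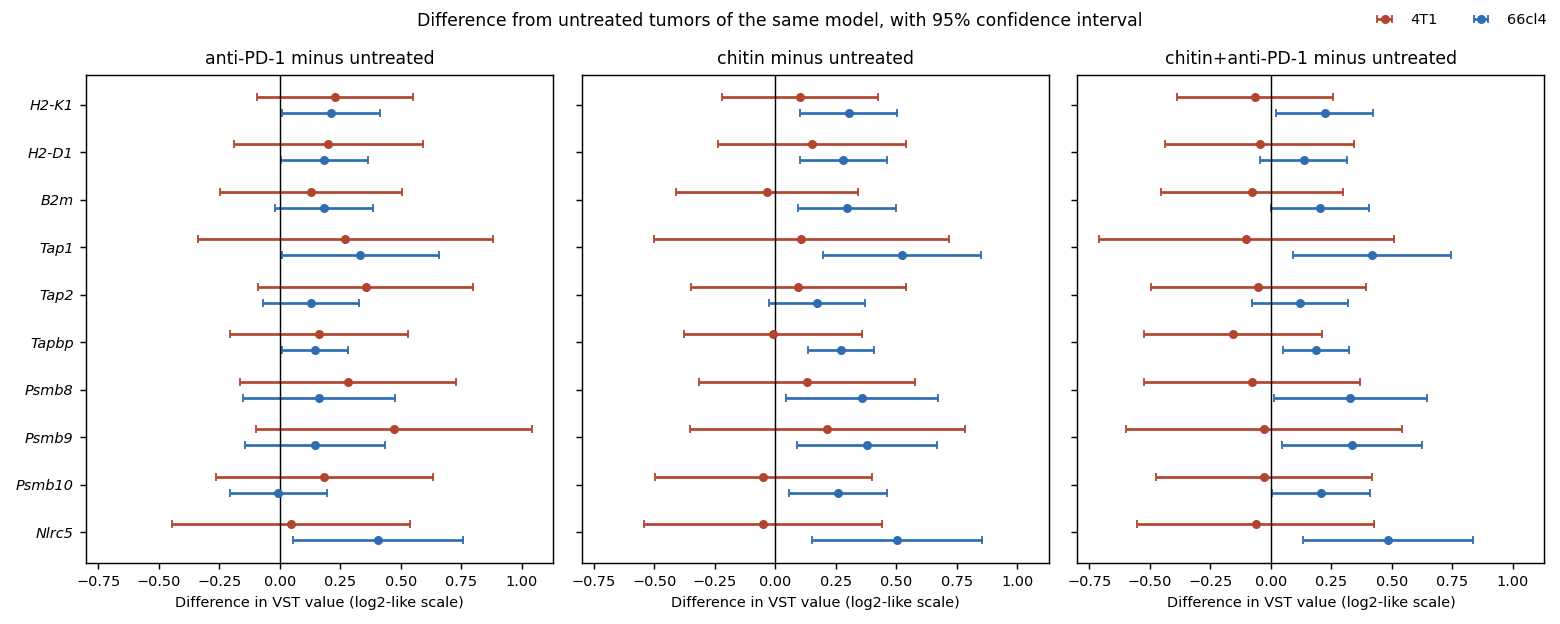
Difference in VST value (horizontal axes, log2-like scale) from untreated tumors of the same model for each gene and treatment, with 95% confidence intervals from limma; 4T1 is red and 66cl4 blue. In the middle panel, all 66cl4 points lie right of 0, from 0.17 for Tap2 to 0.52 for Tap1, and the 4T1 intervals all include 0 in each panel.

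In 4T1 tumors, 0 of the 10 genes reached an unadjusted p of 0.05 under any treatment, and 0 passed the adjusted threshold, as did 0% of all genes in each of the comparisons. The background at the unadjusted p was 8.89% of genes for anti-PD-1, 2.77% for chitin, 2.56% for chitin+anti-PD-1 and 7.28% for the 2 groups given chitin against the 2 groups without it. The median differences of the members were 0.21 after anti-PD-1, 0.098 after chitin alone, -0.064 after the combination and -0.13 for the chitin-containing groups. Leaving out each tumor gave medians of 0.039 to 0.35, -0.12 to 0.22, -0.25 to 0.078 and -0.23 to -0.043. The direction thus turned for chitin (without untreated tumor 2 or 4) and for the combination (without untreated tumor 1 or 5). The intervals were wide: Psmb9, with the largest difference under anti-PD-1, 0.47 (SE 0.27, limma adjusted p = 0.608), had an interval of -0.097 to 1.04. For Tap2, the difference under anti-PD-1 was 0.36 (interval -0.090 to 0.80). Its normalized counts were 1900.36, 2740.86, 1989.88, 2417.57 and 1875.18 with anti-PD-1 and 1721.6, 1417.06, 1609.08, 1426.97 and 1859.93 with chitin+anti-PD-1. Every tumor given both was thus below every tumor given anti-PD-1 alone, as in 0.684% of all genes, and Tap2 was the only member separated between these groups, a pair that was not tested. Of the 4 groups, untreated 4T1 tumors had the highest SD for all 10 genes. In this group, tumors 1 and 5 held the highest value for all 10 genes (4 and 6 genes) and tumors 2 and 4 the lowest (1 and 9). Psmb9 illustrates this, with normalized counts of 2398.71, 983.54, 707.75 and 2183.43 without treatment, and of 1613.83, 2698.03, 1824.81, 2167.63 and 1797.98 with anti-PD-1. The treated tumors all fell within or just above the range of the untreated ones. Over the 4 groups, the SD within groups was higher in 4T1 than in 66cl4 for all 10 genes, for example 0.466 against 0.273 for Tap1 and 0.265 against 0.101 for Tapbp. T-cell markers had 5 of 6 genes below an unadjusted p of 0.05 with anti-PD-1 in 4T1, with sums of 748 to 1822 against 270.5 to 1050 normalized counts in untreated tumors, while the class I genes did not reach it in the same tumors. This p was also reached by the B-cell markers Cd79a (1.07, SE 0.33) and Cd79b (0.92, SE 0.28). The adipocyte marker Adipoq (1.75, SE 0.67) and the milk protein gene Csn2 (1.99, SE 0.75) reached it too, while macrophage and neutrophil markers did not. Of the MHC class II genes, H2-Aa (0.73, SE 0.31), H2-Eb1 (0.84, SE 0.35) and Cd74 (0.64, SE 0.29) reached it, and the others did not. The dendritic cell markers Flt3 (0.62, SE 0.25) and Xcr1 (0.75, SE 0.31) and the NK-cell marker Nkg7 (0.68, SE 0.24) did, unlike the others of their lists.

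Whether the models differed in their response was tested directly over all 8 groups. The change with chitin, alone or combined, was smaller, or more negative, in 4T1 than in 66cl4 for all 10 genes, with a median of -0.34 against 0.0065 over all genes. Of the members, 5 (H2-K1, B2m, Tapbp, Psmb8 and Psmb10) were below an unadjusted p of 0.05, against 13.2% of all genes, and 0 passed the adjusted threshold, which 14 genes (0.0978%) did. Tapbp had the smallest p, at -0.32 (SE 0.13, limma adjusted p = 0.254). All 7 MHC class II genes and all 6 T-cell markers were below an unadjusted p of 0.05 in the same direction, with medians of -1.32 and -0.62, and Ptprc was at -0.74 (SE 0.23, limma adjusted p = 0.137). For anti-PD-1, 0 members and 0% of all genes passed, 0 members were below an unadjusted p of 0.05 (7.27% of all genes), and the median over the members was 0.016 (-0.14 to 0.19 when each tumor was left out). Psmb9, at 0.33 (SE 0.31), and Nlrc5, at -0.36 (SE 0.30), pointed in opposite directions, each with an interval that included 0.

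The 10 genes varied together from tumor to tumor. Over their 45 pairs, the median Pearson r was 0.747 across the 19 4T1 tumors and 0.807 across the 20 66cl4 tumors, and 0.707 and 0.764 after the treatment group means had been removed. The closest pair was Psmb8 and Psmb9 in 4T1 (0.945) and H2-D1 and B2m in 66cl4 (0.945). In 4T1, H2-K1 and Nlrc5 were the loosest pair (0.149). All values of a tumor come from 1 library, which the pairs share.

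Irf1 and Ptprc were compared with each member, as a transcription factor of the pathway and a leukocyte marker, giving 40 relations over the 2 models with permutation tests of 100000 resamples and Benjamini-Hochberg adjustment. In 4T1 tumors, 8 of 10 members passed with Irf1, with r from 0.306 (H2-K1) to 0.861 (Tap1), and 0 of 10 with Ptprc, with r from -0.145 (H2-D1) to 0.368 (Tapbp). In 66cl4 tumors all 10 members passed with both, with r from 0.669 (H2-D1) to 0.965 (Tap1) for Irf1 and from 0.596 (Tapbp) to 0.827 (Psmb9) for Ptprc. For Tap1 and Irf1, the Spearman rho was 0.844 in 4T1 and 0.916 in 66cl4, with permutation adjusted p-values for r of 8.89e-05 and 5.00e-05. For Tap1 and Ptprc in 66cl4, rho was 0.869, with a permutation adjusted p of 1.20e-04. Without the 2 tumors farthest from the median of Irf1 or Ptprc, r stayed between 0.636 and 0.946 for Irf1 and between 0.542 and 0.854 for Ptprc in 66cl4, and between 0.341 and 0.904 for Irf1 in 4T1. With the treatment group means removed, 6 of the 10 relations with Ptprc in 66cl4 still passed. Whether the relations with Ptprc differ between the models was not tested. The share of all genes with such relations to Irf1 or Ptprc is not given here. The counts therefore do not show whether the members stand out from other genes.

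**Figure D5:**
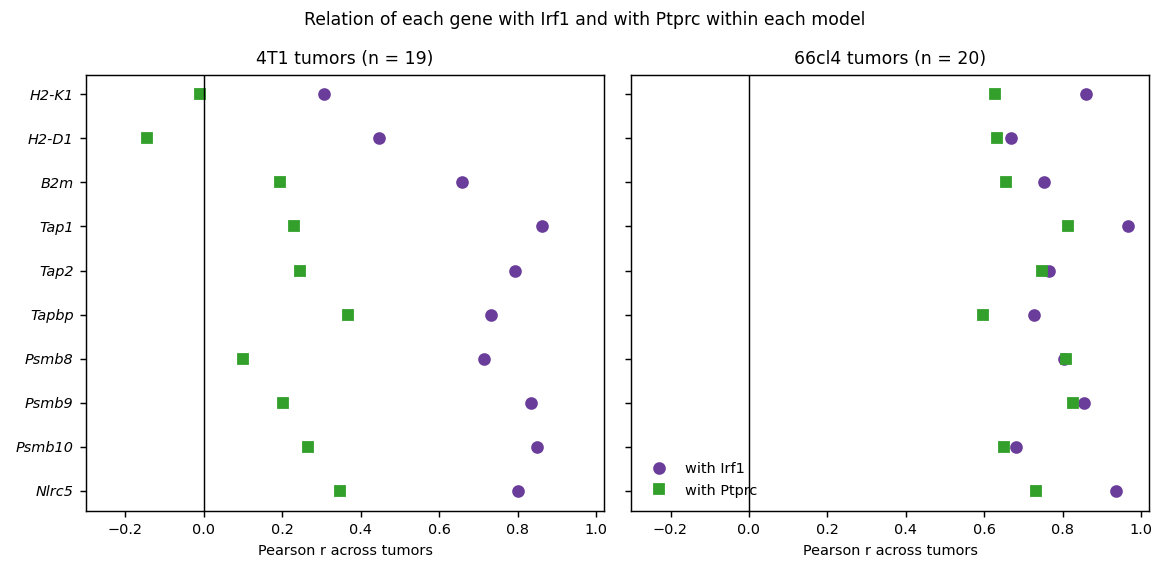
Pearson r across tumors (horizontal axes) of the VST value of each of the 10 genes with Irf1 (purple circles) and with Ptprc (green squares), for the 19 4T1 tumors (left) and the 20 66cl4 tumors (right). In 4T1 the Ptprc points lie between -0.145 and 0.368, left of all Irf1 points of the same gene, while in 66cl4 the lowest point of both sets is at 0.596.

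The genes outside the 10 whose values were most like the mean over the members, judged by the smaller of the r values in the 2 models, included H2-T23 (0.926), Tapbpl (0.850), Irgm2 (0.846), Igtp (0.846), Irf1 (0.833), Gm4951 (0.830), H2-T22 (0.828), H2-DMb2 (0.827) and Psme2b (0.822). H2-T23 and H2-T22 encode further class I heavy chains, and Irgm2 and Igtp encode immunity-related GTPases that interferon-gamma induces. These are correlations over 19 and 20 tumors, given as a description.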

How the data were processed

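Of 40 labelled primary tumors, 39 have values in the table (RNA sequencing, TruSeq stranded libraries, NovaSeq). Per the paper's methods, HISAT2 was used for alignment to mm10 and summarizeOverlaps for strand-aware counting, genes above 10 reads in 10% or more of the cases were retained, and the authors deposited log2-like values from the variance stabilizing transformation of DESeq2. Tool versions and the counting annotation are not given in the sources used here. Untreated 4T1 tumor 3, left out by the authors for RNA degradation, was not analysed here. All columns of values belong to a labelled tumor (0 without one).

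The deposited value of a count of 0, 6.05, fixes the transformation, and its inversion gave whole reads for 100% of values within 0.01 reads. The count of reads per tumor ranged from 5105898 to 14800352, and precision is given as the SD between tumors. Comparisons used limma 3.58.1 (R 4.3.3, with a mean-variance trend) on the deposited values, within each model over its 4 groups (8 comparisons) and over all 8 groups (3 comparisons), two-sided, with Benjamini-Hochberg adjustment over 14318 genes. Chitin-containing means chitin and chitin+anti-PD-1 together. The procedure was tested on simulated data. Since the labels do not say which tumors came from separate mice, p-values measure only the spread between these tumors. They treat any tumors of the same mouse as independent. No pair of tumors agreed within counting noise.

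The members and gene lists were chosen with earlier results of these data known. All 10 members are named; of other lists, at most 3 genes past the threshold with the largest difference, plus Irf1, Ifng, Ptprc, Psmb5, Psmb6, Psmb7 and the 10 genes most like the mean of the members. The naming of genes did not keep to this rule throughout. In treatment comparisons in which no gene passed, markers and related genes were named outside it, with their values known. Most of these were chosen by their unadjusted p. Csf3r, which did not pass between untreated tumors of the models, was also named outside the rule. Cd53 and H2-M3 were named after their values or sequences had been seen. Of the listed markers and heavy chains, H2-T3, Trac, Ly6g, Ms4a1, Wap and Lalba are not among the genes listed. Some genes that this rule would name are not reported here. Alternatives were median centring, quantile normalization, equal read depth, a filter on low counts (mean of 10), limma-voom on recovered reads, tumor weights, the tumor number as a block, one fit over 8 groups and leaving out each tumor. Relations across tumors, promoter motifs and figures were made in Python 3.11.15 with numpy 2.4.6, pandas 2.3.3, scipy 1.17.1 and matplotlib 3.10.9.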

Additional observations from a re-analysis of the deposited data

Results flagged for a closer look

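Of 80 sets of values (10 genes in 8 groups) tested for a tumor far from the others of its group by Dixon's test at the 95% level, 2 were marked, and about 1 in 20 would be by chance. Both concern tumor 3 of the chitin-treated 66cl4 group. Psmb9 was at 8.56 on the VST scale in this tumor, while the other 4 ranged from 8.85 to 8.95. Psmb10 was at 9.57, while the other 4 ranged from 9.72 to 9.78. The same tumor was the lowest of its group for 5 of the 10 genes.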

How the results depend on the processing

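Depth limits Nlrc5 most, with as few as 41 reads in a 66cl4 tumor. Under all alternatives run, 10 members passed between untreated 4T1 and 66cl4 tumors, and 0 passed in the other comparisons, except 1 for 66cl4 chitin-containing groups when a tumor was left out (0 to 1). The number of all genes past the threshold did change, and the cause was not tested. With weights per tumor it was 960 for anti-PD-1 and 297 for chitin-containing groups in 4T1, 185 for chitin-containing groups in 66cl4, and 331 and 1004 for the differences between models in the anti-PD-1 and chitin-containing effects. With one fit over 8 groups it was 60 for anti-PD-1, 3 for chitin+anti-PD-1 and 58 for chitin-containing groups in 4T1, and 1 for chitin-containing groups in 66cl4. For the difference in the chitin-containing effect, with 14 genes as reported, it was 39 after quantile normalization and 5 at equal depth. Leaving out each tumor gave 0 to 80 genes for anti-PD-1 and 0 to 1 for chitin-containing groups in 4T1, 0 to 25 for chitin, 0 to 3 for chitin+anti-PD-1 and 0 to 269 for chitin-containing groups in 66cl4, and 0 to 86 and 0 to 677 for the differences in the anti-PD-1 and chitin-containing effects. The highest of these came without 66cl4 untreated tumor 3 (25 and 269), 66cl4 untreated tumor 4 (3) and 4T1 anti-PD-1 tumor 2 (80, 86 and 677).

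The tumor number as a replicate block gave 1 gene for chitin+anti-PD-1 in 4T1, 2 for chitin, 7 for chitin+anti-PD-1 and 16 for chitin-containing groups in 66cl4, and 176 for the difference in the chitin-containing effect. The deviations of same-numbered tumors had a median correlation of -0.017 in 4T1 and 0.026 in 66cl4. Of these pairs, 11 of 27 and 11 of 30 were above 0.1, and the highest were 0.447 and 0.539. A median over pairs does not show whether some same-numbered tumors share more than a number. Among the members, Psmb9 under chitin+anti-PD-1 in 4T1 turned to 0.026 with the block.

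Weights per tumor turned Nlrc5 under anti-PD-1 in 4T1 to -0.12 and Psmb10 under anti-PD-1 in 66cl4 to 0.018. Among the treatment differences recomputed under each alternative (medians and selected members, none of which passed as reported), leaving out a tumor turned the direction of the median over the members in 4T1 for chitin (-0.12 to 0.22) and chitin+anti-PD-1 (-0.25 to 0.078), of its difference between models for anti-PD-1 (-0.14 to 0.19), and, in 4T1, of Nlrc5 under anti-PD-1 (-0.097 to 0.28) and chitin (-0.19 to 0.18), Psmb9 under chitin (-0.075 to 0.46) and chitin+anti-PD-1 (-0.32 to 0.21), Tapbp under chitin+anti-PD-1 (-0.31 to 0.0043) and H2-D1 in chitin-containing groups (-0.12 to 0.0027), and in 66cl4, of Psmb10 under anti-PD-1 (-0.071 to 0.064). With treatment group means removed, 6 rather than 10 relations with Ptprc passed in 66cl4.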
